A study of Mus musculus with 9 samples.

Results

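The 3 control arrays of a study of mouse primary myoblasts were examined for their baseline expression. They were chosen by their label as myoblast controls, 3 of 9 arrays in all, and the deposited log2 values of 24011 named genes on them were ranked and compared between the arrays. In the study, cells derived from satellite cells were expanded on collagen in Ham's F10 with 20% fetal bovine serum and basic FGF, moved to DMEM with 2% horse serum, and harvested after 24 h. The controls were mock-treated, while 3 further arrays received BMP4 at 100 ng/ml and 3 received its antagonist GREM1 at 500 ng/ml. The labels give no strain, age or genotype that separates the groups, and they do not state whether the 3 replicates were separate cultures, so spreads and p-values refer to these samples only.

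Satellite cells are the stem cells of skeletal muscle, held beside the fibre and marked by the transcription factor Pax7. Their progeny, the myoblasts, express Myod1 and Myf5 while they divide. When mitogens are withdrawn they switch on Myog, stop dividing, make contractile proteins and fuse into multinucleated myotubes. RNA taken after a day in low serum therefore comes from a culture in which dividing and differentiating cells can be present together, and array values of such a culture are averages over all its cells.

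Values are on the log2 scale, so a difference of 1 is 2-fold. The rank of a gene is a rank of array signal, which also depends on how well its probes bind, and it is not a rank of molecules. In bulk samples, fewer cells of a type and less RNA per cell cannot be told apart. Errors are the SD over the 3 control arrays.

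Promoter windows of 4 genes with very high signal are shown because they carry the motifs that were counted over all promoters further on. Each holds 300 bases, mostly upstream of the RefSeq start, 5′ to 3′ on the gene's own strand in GRCm38.p6. Capitals mark matches on either strand. The TATA box was searched as TATAAA. The motif of nuclear factor Y was CCAAT, and the GC box of Sp1 was GGGCGG. Of the E-boxes, bound by the Myod1 family and its relatives, one form was CAGCTG. The other form was CACGTG, and both read the same on either strand. The CArG box of serum response factor was the last motif. Acta1 encodes skeletal alpha-actin and lies on the minus strand at chr8:123894726-123895025. Actc1 encodes cardiac alpha-actin, used by embryonic skeletal muscle too, on the minus strand at chr2:114052826-114053125. Tnnt2, cardiac troponin T, is on the plus strand at chr1:135836084-135836383. Chrna1, the alpha subunit of the muscle acetylcholine receptor, is on the minus strand at chr2:73580289-73580588.
Acta1: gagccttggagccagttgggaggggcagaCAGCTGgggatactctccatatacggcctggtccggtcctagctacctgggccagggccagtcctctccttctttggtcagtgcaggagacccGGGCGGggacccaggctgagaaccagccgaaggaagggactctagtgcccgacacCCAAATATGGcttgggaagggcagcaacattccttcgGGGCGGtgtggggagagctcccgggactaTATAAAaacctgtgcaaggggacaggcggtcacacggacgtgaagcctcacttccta
Actc1: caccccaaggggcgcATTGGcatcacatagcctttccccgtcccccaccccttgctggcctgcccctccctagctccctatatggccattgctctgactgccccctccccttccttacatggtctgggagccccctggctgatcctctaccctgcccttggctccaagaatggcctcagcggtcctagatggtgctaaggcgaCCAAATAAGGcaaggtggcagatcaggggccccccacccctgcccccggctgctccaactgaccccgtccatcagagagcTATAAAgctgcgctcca
Tnnt2: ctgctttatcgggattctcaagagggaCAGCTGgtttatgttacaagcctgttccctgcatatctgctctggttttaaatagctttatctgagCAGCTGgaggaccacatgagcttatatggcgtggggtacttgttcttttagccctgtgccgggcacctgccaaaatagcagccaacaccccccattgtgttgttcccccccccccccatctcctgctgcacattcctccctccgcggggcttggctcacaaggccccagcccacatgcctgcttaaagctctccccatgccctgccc
Chrna1: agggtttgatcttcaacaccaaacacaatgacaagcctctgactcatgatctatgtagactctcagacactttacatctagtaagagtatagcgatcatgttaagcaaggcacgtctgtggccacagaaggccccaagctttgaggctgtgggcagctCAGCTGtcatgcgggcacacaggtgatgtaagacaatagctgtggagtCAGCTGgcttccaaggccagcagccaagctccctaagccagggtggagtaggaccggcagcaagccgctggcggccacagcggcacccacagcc

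Acta1 and Actc1 each hold a TATA box and a CArG box, and Acta1 also an E-box CAGCTG and a pair of GC boxes. Tnnt2 and Chrna1 each hold CAGCTG in 2 places and none of the other motifs. A match is a description of letters and says nothing about binding in these cells.

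Mature sequences of a pair of muscle microRNAs are shown as well, from RefSeq on GRCm38.p6, both on the plus strand of chromosome 1, with the seed (bases 2 to 8) in capitals. They lie at chr1:20682834-20682855 and chr1:20679055-20679076. They represent the microRNA genes with muscle-restricted expression whose array values are described below, and their seeds differ.
miR-133b-3p: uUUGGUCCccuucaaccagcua
miR-206-3p: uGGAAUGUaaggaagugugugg

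Mean values ran from 2.00 for Mup-ps12, a pseudogene of the major urinary proteins, to 12.57 for Rplp1, a protein of the ribosomal stalk. The median gene stood at 5.06, the 75th percentile at 6.89, the 90th at 8.27 and the 99th at 10.35. To set a floor, 1417 sensory receptor genes (olfactory, vomeronasal, taste and trace amine receptors), which muscle cells are not known to use, were taken as a reference. Their median was 2.94 and their 95th percentile was 5.07, which is called the background line here. By its construction 71 of these receptor genes lay above it, the highest being Olfr749 with 7.90, 7.87 and 7.92 in replicates 1, 2 and 3. A value above the line is thus not proof of expression for a single gene.

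Of the 24011 genes, 11969 (49.8%) had a mean above the line and 12042 (50.2%) at or below it. The boundary was crowded, with 356 genes within 0.1 above the line and 387 within 0.1 below. Protein-coding genes lay above it more often, with 10884 of 19638 (55.4%), than long non-coding RNAs, with 576 of 2697 (21.4%), or genes annotated as microRNAs by RefSeq, with 142 of 535 (26.5%). Small nucleolar RNAs, which guide chemical modification of ribosomal RNA, had 78 of 105 (74.3%).

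**Figure D1:**
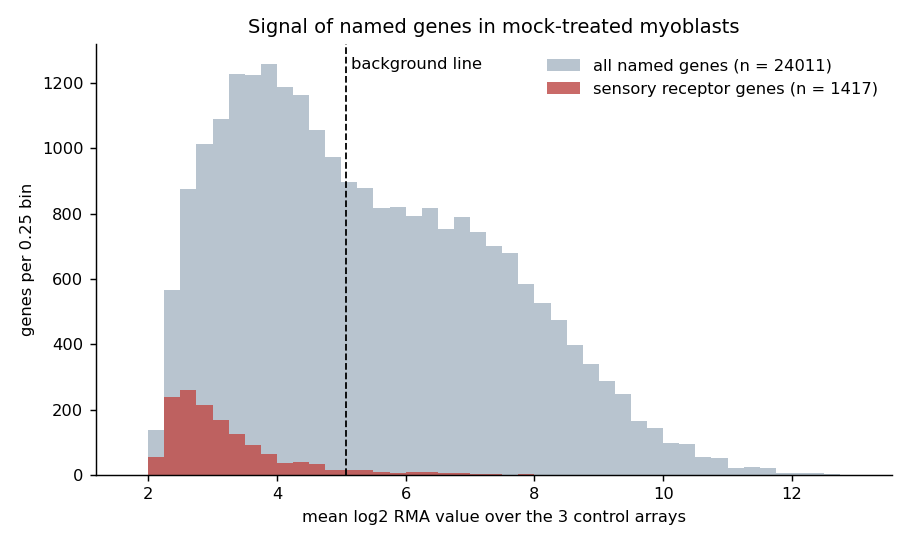
Distribution of the mean log2 value over the 3 control arrays for the named genes and for the sensory receptor genes (x axis, log2 RMA value; y axis, number of genes per bin; grey, all 24011 named genes; red, the 1417 receptor genes). The receptor genes, with a median of 2.94, sit at the low end, and the dashed background line at 5.07 divides the named genes into 11969 above and 12042 at or below.

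The highest signals belonged to contractile proteins, small calcium-binding proteins, ribosomal and respiratory proteins and a few non-coding RNAs. The 25 genes named by rank reached down to rank 28, since 3 predicted genes among them were skipped. Rplp1 was at 12.50, 12.55 and 12.66 in replicates 1, 2 and 3. S100a6, a calcium-binding protein of growing cells, was at 12.52, 12.50 and 12.60. Acta1 measured 12.53, 12.57 and 12.27, lowest in replicate 3. These 3 leaders were at or near the top on every array, and their spread was small against the range of all genes.

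Muscle genes filled many of the next places. Tnnc1, the calcium sensor of slow and cardiac troponin, had 12.43, 12.55 and 12.33. Mylpf, the fast regulatory myosin light chain, had 12.31, 12.38 and 12.25. Tnnt2 had 12.06, 12.25 and 12.03, and Actc1 ranged from 11.92 to 12.07. In each of these 4 genes replicate 2 was highest and replicate 3 lowest. Mymk, the membrane protein myomaker that drives fusion, stood at rank 14 with 12.04, 12.04 and 11.56. Chrna1 stood at rank 25 with 11.49, 11.78 and 11.71.

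Other genes of the leading group are used by many cell types. Lgals1, a secreted galectin, had 12.21, 12.38 and 12.51, and Vim, the intermediate filament vimentin, had 11.63, 12.09 and 12.39. Actb, cytoplasmic beta-actin, had 11.08, 11.74 and 12.14, a range of 1.06 that was the widest of the 25. These 3 genes were lowest in replicate 1 and highest in replicate 3. Mif, a cytokine, had a mean of 12.29 ± 0.08, S100a4 12.04 ± 0.17, the lysosomal tetraspanin Cd63 11.73 ± 0.11, the elongation factor Eef1b2 11.87 ± 0.05, the poly(A)-binding protein Pabpc1 11.83 ± 0.17 and Rpl4 11.74 ± 0.06. Respiratory chain and ATP synthase subunits were represented by Atp5k (11.83 ± 0.12), Ndufa12 (11.69 ± 0.08), Cox6a1 (11.65 ± 0.08) and Atp5e (11.61 ± 0.02).

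Rn7sk, Malat1 and H19 were the non-coding RNAs among the 25. Rn7sk, the small nuclear RNA that holds back transcription elongation, had 12.32, 12.36 and 12.35. Malat1, a nuclear RNA found in most cells, had 11.76, 11.73 and 11.83. H19, an imprinted RNA of embryonic tissues and muscle progenitors, had 11.76, 11.82 and 11.70. All 3 were nearly flat over the control arrays, with SDs of 0.02, 0.05 and 0.06 in that order.

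The lineage of the cells was visible in the transcription factors. Myog, which starts terminal differentiation, was at 9.88, 10.46 and 9.69 (10.01 ± 0.40). Myod1, the determination factor, was at 9.02, 9.39 and 9.63 (9.35 ± 0.31). Myf5, expressed in dividing myoblasts, was at 7.40, 7.74 and 8.34 (7.83 ± 0.47). Myod1 and Myf5 were lowest in replicate 1 and highest in replicate 3, whereas Myog was highest in replicate 2. Myf6, the factor of mature fibres, was low at 5.72, 5.73 and 5.57, above the line on each array.

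Of 21 satellite cell and myoblast identity genes measured, 18 lay above the line and 7 in the top 10% of all genes, against 49.8% and 10% of all genes. Pax7, with 7.43, 7.63 and 7.73 (7.59 ± 0.15), was well above the line on all 3 arrays. Highest were Peg3, an imprinted zinc finger gene, at 11.18 ± 0.15, the muscle intermediate filament Des at 11.05 ± 0.35, the adhesion molecule Ncam1 at 10.72 ± 0.24 and Met, the receptor of hepatocyte growth factor, at 9.57 ± 0.22. Sdc4, a surface proteoglycan, had 8.68 ± 0.15, and Itga7, the laminin-binding integrin of muscle, 8.56 ± 0.24. Below the line were Msc (4.84), Heyl (4.32), a Notch target, and Calcr (3.90), the calcitonin receptor of quiescent satellite cells.

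Factors that work with the myogenic regulators were also high, with 14 of 16 above the line and a median of 8.36. Mef2c, an activator of muscle genes, had 10.65, 10.71 and 9.67, and its replicate 3 was about 1 unit below the others. Mef2a had a mean of 9.98 ± 0.12 and Mef2d 9.41 ± 0.25, while Mef2b was at 4.07, below the line. The inhibitors of differentiation, which block the E-protein partners of Myod1, were present beside them. Id1 had 9.33, 9.49 and 10.04, Id2 had a mean of 8.52 ± 0.21, and Id3 had 7.39, 8.59 and 9.12. Id1 and Id3 were highest in replicate 3, where Mef2c was lowest. Snai2, a repressor expressed in myoblasts, was at 10.10 ± 0.13, and Twist1 was at 4.87.

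Of 21 fusion genes, 16 were above the line. After Mymk came Cd81 at 11.13 ± 0.29, Cdh2, N-cadherin, at 10.48 ± 0.11, Myof, a membrane repair protein, at 10.01 ± 0.16, Jam2 at 9.71 ± 0.14 and the co-receptor Cdon at 9.36 ± 0.08. Mymx, the small fusion protein that acts after myomaker, had 7.11, 7.73 and 7.08. Nphs1 (4.57) and Adgrb3 (3.39) were near background.

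Genes of the contractile apparatus were mostly high. Of 40 sarcomere and contractile genes, 35 lay above the line, 26 in the top 10%, and the median was 9.93. Myh3, embryonic myosin, had 11.47, 11.73 and 11.18, and Myh8, perinatal myosin, had 9.58, 9.66 and 8.63. The adult isoforms differed widely from each other in signal, with Myh1 at 9.96 ± 0.42, Myh7 at 7.66 ± 0.49, Myh2 at 5.63 ± 0.21 and Myh4 at 4.13 ± 0.33, the latter below the line. Myosin heavy chain genes are near-identical over long stretches, so the split of signal among them is uncertain.

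All 3 forms of troponin T were high, with Tnnt2 at 12.12 ± 0.12, Tnnt3 at 11.56 ± 0.25 and Tnnt1 at 11.52 ± 0.20. Tpm2, beta-tropomyosin, had 11.54, 11.58 and 11.54. The giant proteins Ttn, with 11.53, 11.59 and 11.15, and Neb, with 11.34, 11.34 and 10.88, were in the top 1% as well. Ckm, the creatine kinase of mature muscle, had 6.80, 6.77 and 6.52, above the line on each array. Lowest of the list were Myh4 (4.13), Mybpc2 (3.84), the fast myosin-binding protein, and Myl3 (2.99), the slow and ventricular light chain.

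**Figure D2:**
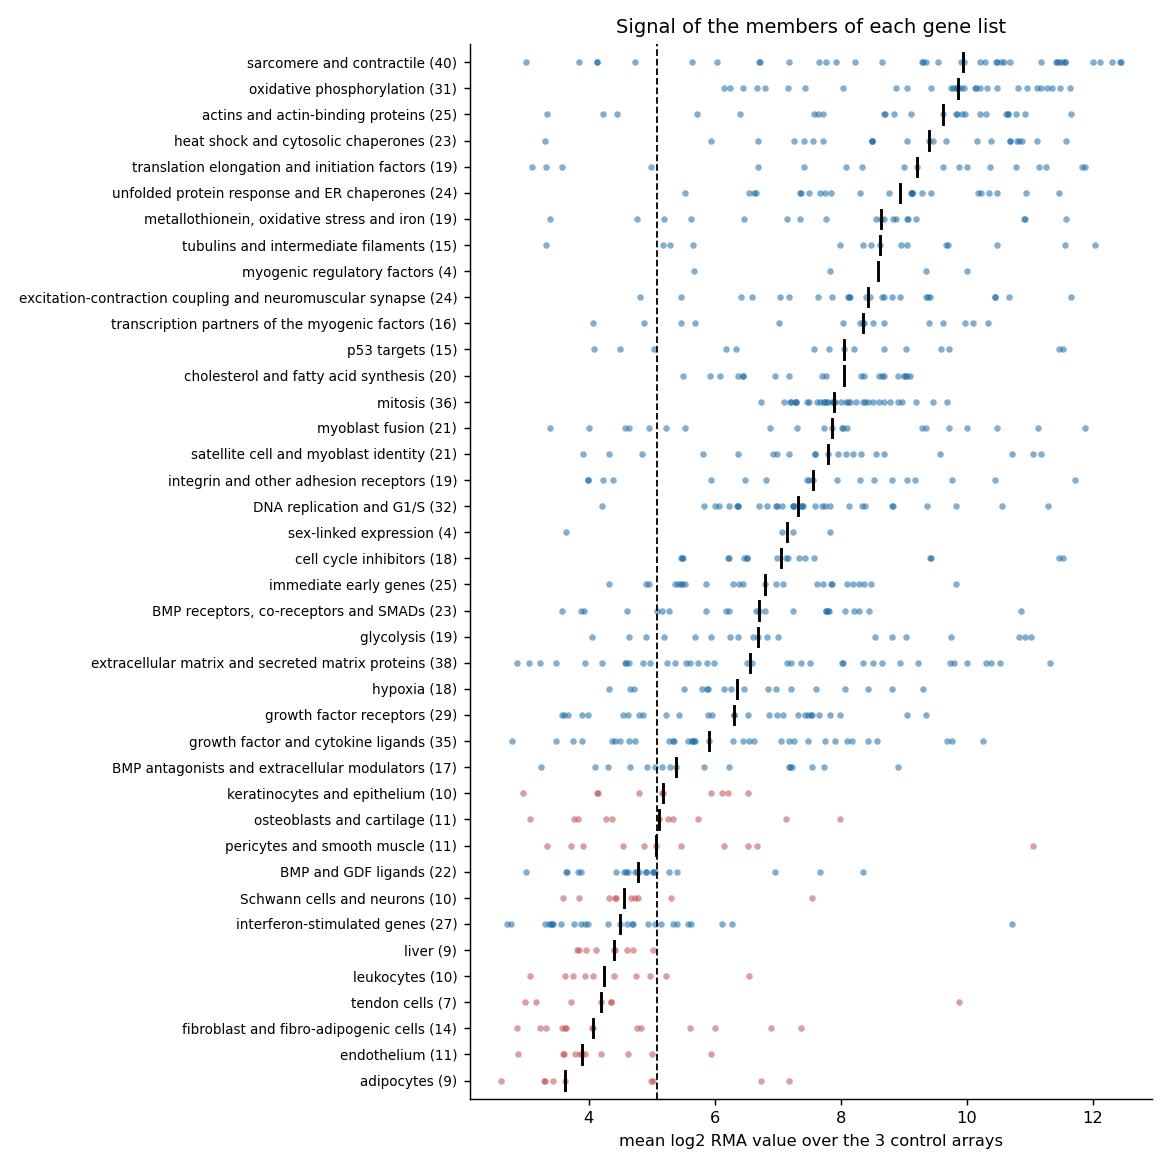
Mean log2 value over the 3 control arrays for each measured gene of each list (x axis, log2 RMA value; rows are lists; points are genes, red for lists of other cell types and blue for the rest; the black tick is the median of the list; the dashed line is the background line at 5.07). Sarcomere genes, with a median of 9.93, lie to the right and liver genes, with a median of 4.40, to the left.

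Genes for calcium release, the muscle membrane and the nerve-muscle synapse were above the line in 23 of 24 cases, with a median of 8.43. The embryonic acetylcholine receptor was the clearest member. Its gamma subunit, Chrng, had 10.52, 10.85 and 10.63, and its delta subunit, Chrnd, had 9.47, 9.55 and 9.22. The adult epsilon subunit, Chrne, had 5.19, 4.60 and 4.66, a mean below the line. Musk, the receptor that organises the synapse, was at 9.38 ± 0.27, and the calcium pump Atp2a2 at 10.45 ± 0.21. Casq2 and Casq1, calcium-binding proteins of the sarcoplasmic reticulum, had means of 10.45 ± 0.31 and 9.36 ± 0.56. Sln, a small inhibitor of the calcium pump, had 5.72, 5.87 and 4.80, with replicate 3 alone below the line.

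The general cytoskeleton was strong too. Of 25 actins and actin-binding genes, 22 were above the line and 17 in the top 10%. Pfn1, profilin, had 10.93 ± 0.17, Tmsb4x, an actin-sequestering peptide, 10.78 ± 0.18, Cfl2, muscle cofilin, 10.66 ± 0.27 and Zyx, a focal adhesion protein, 10.65 ± 0.17. The smooth muscle genes of the list were split, with Acta2 at 9.64, 10.65 and 10.64, Actg2 at 4.22 and Cnn1 at 3.34. Among tubulins and intermediate filaments, Tuba1a had 11.57 ± 0.12, Nes, the nestin of progenitor cells, 9.71 ± 0.10, and Tubb5 9.66, 10.72 and 11.07, lowest in replicate 1.

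Several genes that dividing cells use heavily were listed near background. Eef1a1, the main translation elongation factor, had 3.19, 3.56 and 3.99. Tpt1 had a mean of 3.32, Eif4a1 3.10, Tuba1b 3.32, the chaperone Hsp90aa1 3.30, the ferritin light chain Ftl1 3.39 and cofilin Cfl1 4.45. The glycolytic enzymes Aldoa (4.90) and Pgam1 (4.05) were also below the line. Such genes have close paralogs or processed copies in the mouse genome, and their array values are uncertain. A value under the line in these data therefore does not show that a gene was silent.

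Cell cycle genes and their inhibitors were present side by side. Of 32 DNA replication genes, 31 lay above the line, and all 36 mitosis genes did, with medians of 7.31 and 7.90. Pcna, the sliding clamp of DNA polymerase, had 11.15, 11.24 and 11.47. Ccnd1, cyclin D1, had 10.10, 10.64 and 10.95, and Rrm2, a subunit of ribonucleotide reductase, had 9.41, 9.86 and 10.22. Each of these was highest in replicate 3.

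Of the mitotic genes, Ube2c had 9.51, 9.63 and 9.91, Top2a, the topoisomerase of chromosome condensation, 9.30, 9.35 and 9.76, and Cdk1, the mitotic kinase, 8.92, 9.04 and 9.64. The proliferation marker Mki67 had 8.66, 8.61 and 9.07. Replicate 3 was again the highest array for all 4. The lowest mitotic gene, Nusap1, still had a mean of 6.74.

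All 18 cell cycle inhibitors and related genes lay above the line. Cdkn1a, the inhibitor p21 that accompanies muscle differentiation, had 10.84, 11.95 and 11.82, lowest in replicate 1. Ccng1, a p53 target, had 11.47 ± 0.13, Gadd45a 9.43 ± 0.27, and Rb1, the retinoblastoma protein needed for lasting exit from the cycle, 9.66, 9.65 and 8.92. Btg2 (7.57 ± 0.03) and Ccng2 (7.43 ± 0.02) hardly varied.

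Respiratory genes were present throughout. All 31 oxidative phosphorylation genes measured were above the line, 23 in the top 10%, with a median of 9.86. Atp5g3 had 11.42, 11.48 and 11.54, Cox5a 11.33, 11.23 and 11.28, and Ndufa4 11.05, 11.14 and 11.35. Atp5b, the catalytic subunit of ATP synthase, had 10.90, 11.54 and 11.61. At the low end were Cox7a1 (6.45 ± 0.37), the heart and muscle isoform, Cox5b (6.25 ± 0.05) and cytochrome c, Cycs (6.15 ± 0.44).

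Of 19 glycolysis genes, 16 were above the line, with a median of 6.69. Ldha, lactate dehydrogenase, had 10.56, 11.27 and 11.22, Pkm, pyruvate kinase, 10.52, 11.03 and 11.21, and Eno3, muscle enolase, had a mean of 10.84 ± 0.27. Replicate 1 was lowest in all 3. Pgam2, the muscle phosphoglycerate mutase, had 9.80, 10.07 and 9.37, and the glucose transporter Slc2a1 had 8.81 ± 0.05.

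All 20 cholesterol and fatty acid synthesis genes were above the line, with a median of 8.05. Hmgcs1 had 8.78, 9.17 and 9.35, Insig1 8.75, 9.13 and 9.29, and Sqle, squalene epoxidase, 8.67, 9.08 and 9.28. In all 20 genes replicate 3 exceeded the mean of the other control arrays, and in all 20 replicate 1 fell short of it. Scd1 (5.93 ± 0.30) and Idi1 (5.50 ± 0.21) were the lowest.

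Protein production and turnover machinery was high. Mitochondrial ribosomal proteins had 74 of 76 genes above the line, led by Mrps6 at 11.16 ± 0.31 and Mrpl12 at 10.33 ± 0.11. Proteasome subunits had 32 of 37, with a median of 9.86, led by Psmb6 (10.84), Psma7 (10.83) and Psma6 (10.80). Cytosolic ribosomal proteins, whose genes have many processed copies, had 45 of 54 and a median of only 6.77, with Rplp1, Rpl4 and Rps21 (11.52) at one end and the lowest gene at 3.06. Translation factors included Ncl, nucleolin, at 11.26 ± 0.11 and Eef2 at 11.16 ± 0.13.

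Levels of matrix genes spread widely. Of 38 genes, 27 were above the line and 12 in the top 10%. Sparc, a collagen-binding glycoprotein, had 11.08, 11.36 and 11.54. Fn1, fibronectin, had 10.41, 10.61 and 10.55, and the protease inhibitors Timp2 and Timp1 had means of 10.38 ± 0.13 and 10.31 ± 0.34. Bgn, biglycan, was at 10.01 ± 0.12 and Thbs1 at 9.80 ± 0.09.

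No collagen chain reached the top 10%, and 24 of 44 were above the line. Col8a1 was the highest at 7.84 ± 0.26, then the fibrillar chain Col3a1 at 7.17, 7.17 and 7.78, Col18a1 at 7.21 ± 0.10 and the fibrillar chain Col5a2 at 7.14 ± 0.10. Col1a1, the main chain of fibroblast matrix, had 5.27, 5.18 and 5.24, barely above the line, and Col1a2 had 4.91, 4.99 and 4.99, under it. Lum (3.23), Postn (3.05) and Dcn (2.86), matrix proteins of fibroblasts, were near background on all 3 arrays.

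Adhesion receptors had 15 of 19 genes above the line. Itgb1, the common beta chain, had 10.16, 10.56 and 10.64, Itga6, a laminin receptor chain, 9.42, 9.84 and 10.06, and Sdc2 9.18 ± 0.21. Itgb3 (4.22), Itga1 (3.98) and Itga9 (3.98) lay under the line.

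In these untreated cells, ligand genes of the perturbed BMP pathway were mostly under the line, and receptor and SMAD genes mostly above it. BMP ligands bind pairs of type I and type II receptors, which phosphorylate Smad1, Smad5 and Smad9, and secreted antagonists trap the ligands outside the cell. Of 22 BMP and GDF ligands, 5 were above the line, while 11 of 17 antagonists and 19 of 23 receptors, co-receptors and SMADs were.

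Gdf11 was the highest ligand with 8.59, 8.33 and 8.12, then Mstn, myostatin, the brake on muscle mass, with 7.85, 7.96 and 7.19. The protease Bmp1, which is not a growth factor despite its name, had 6.95 ± 0.24. Bmp4 had 3.77, 4.07 and 3.77, on every array more than 1 unit under the line. Bmp2 (4.55), Bmp6 (3.83) and Bmp5 (3.00) were under it too, and Bmp7 was at 5.05 ± 0.18, next to it.

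Among the antagonists Fst, follistatin, which traps activins and myostatin, had 9.21, 9.30 and 8.21, lowest in replicate 3. Fstl1 had 7.73 ± 0.19. Grem1, gremlin, had 7.57, 7.44 and 7.61 (7.54 ± 0.09), so the gene of the protein added in the GREM1 group gave a signal above the line in every control array. Nbl1 (7.23 ± 0.02), Twsg1 (7.20 ± 0.21) and Crim1 (7.18 ± 0.18) were close to it. Nog, noggin, was low at 6.09, 5.89 and 5.50, and Chrdl1 was at 3.24.

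Bmpr2, the type II BMP receptor, was the highest receptor gene with 11.05, 10.81 and 10.72. The type I receptors Bmpr1a, with 8.24, 8.19 and 8.20, and Acvr1, with 7.69, 7.81 and 7.80, were both well above the line, whereas Bmpr1b (3.93) and Acvrl1 (3.57), the endothelial receptor, were below. The signal transducers Smad1 (7.82 ± 0.02), Smad5 (7.25, 7.24 and 7.24) and Smad4 (8.29 ± 0.19) varied little. Smad9 was at 5.16 ± 0.15, beside the line. Feedback inhibitors were Smad7 with 7.66, 7.83 and 7.90 and Smad6 with 6.25, 6.13 and 6.13.

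Of 29 growth factor receptors, 20 were above the line. Il6st, the common chain of interleukin 6 family receptors, had 9.35 ± 0.31, Igf2r 9.06 ± 0.26, Erbb2 7.98 ± 0.38, Igf1r 7.83 ± 0.19, and Erbb3, a neuregulin receptor, 7.91, 8.10 and 6.62, with replicate 3 more than 1 unit lower. Lgr5 (3.67), Flt1 (3.60) and Pdgfra (3.58) were near background. Of 35 ligands and binding proteins, 26 were above the line. Csf1, a macrophage growth factor, had 10.13, 10.24 and 10.40, Igfbp3 9.76 ± 0.07, and Igf2, an autocrine factor of differentiating myoblasts, 9.50, 10.04 and 9.52. Hgf (3.47) and Il6 (2.78) were at the low end.

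Stress genes differed by pathway. Chaperones of the endoplasmic reticulum and unfolded protein response genes were all above the line, 24 of 24, with a median of 8.94. Hsp90b1 had 11.47 ± 0.11, Canx, calnexin, 10.94 ± 0.20 and Atf4, the stress-response transcription factor, 10.49 ± 0.04. Hspa5, the chaperone BiP, had 9.62, 10.40 and 10.64, lowest in replicate 1. Cryab, a small heat shock protein of muscle, had 11.62, 11.61 and 11.50, and Hspa8 had 9.92, 11.20 and 11.35, with replicate 1 more than 1 unit lower.

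Interferon-stimulated genes were the opposite, with 8 of 27 above the line and a median of 4.49. B2m, the light chain of MHC class I, was the exception at 10.71 ± 0.12. Isg15, with 3.46, 3.46 and 3.18, Mx1 (2.76) and Iigp1 (2.70) were near background.

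The p53 target genes had 12 of 15 above the line and a median of 8.05, with Cdkn1a and Ccng1 in front, then Phlda3 (9.72 ± 0.24), Mdm2, the p53 ubiquitin ligase, at 9.60 ± 0.13, and Plk2 (9.04 ± 0.12). Fas (4.49) and Bbc3 (4.08), which promote cell death, were below the line. Of 25 immediate early genes, 22 were above the line. Myc had 9.84, 9.81 and 9.85, Jun 8.49 ± 0.05 and Fosl1 8.37 ± 0.17, while Fos (4.96) and Fosb (4.91) were just under the line. Hypoxia genes had 15 of 18 above the line, led by Egln3 at 9.30 ± 0.04, with Car9 (4.65) and Adm (4.33) under it. For oxidative stress and metal handling, 17 of 19 were above the line, with the ferritin heavy chain Fth1 at 11.57 ± 0.17 and Mt1, a metallothionein, at 9.07 ± 0.17.

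The labelled cell type was set against the markers of cells that a muscle preparation could also hold. Endothelial markers were above the line in 1 of 11 cases, with Pecam1 (4.63) and Cdh5 (3.87) under it. Leukocyte markers were above it in 2 of 10, with Ptprc, the pan-leukocyte CD45, at 3.06. Liver genes, a tissue foreign to the culture, were above it in 0 of 9. Fibroblast and fibro-adipogenic markers had 4 of 14 above the line, with Col3a1, Osr1 (6.90 ± 0.16), Cd248 (6.01 ± 0.04) and Thy1 (5.60 ± 0.23) above it and the defining Pdgfra and Dcn under it. The median of the fibroblast list was 4.07, 4.05 and 4.05 in replicates 1, 2 and 3.

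A few markers of other lineages were nevertheless above the line, but only Scx and Des reached the top 10% of all genes. Sp7, Pparg, Lpl and Lor had means below the 7.90 of Olfr749, the highest of the reference receptor genes. Scx, the tendon transcription factor, had 10.04, 9.91 and 9.66, the only tendon gene of 7 above the line, while Tnmd, the mature tendon marker, was at 2.98. Of 11 osteoblast and cartilage genes 6 were above the line (54.5%, against 49.8% of all genes). Sox9, of cartilage, had 7.85, 8.05 and 8.07, and Sp7, of osteoblasts, had 7.10, 7.19 and 7.10. Among those under the line were the mature products Acan (3.76), Ibsp (3.07) and Alpl (4.37). Pparg, of adipocytes, had 6.98, 6.67 and 6.57 and Lpl 7.18 ± 0.34, with Adipoq at 3.29 and Fabp4 at 2.60. Erbb3 was the highest gene of the Schwann cell and neuron list, in which Sox10 (4.67), Mbp (4.73) and S100b (3.58) were near background. Of 10 keratinocyte and epithelial genes 6 were above the line, the highest Lor at 6.52 ± 0.32, with Krt14 (4.14) and Epcam (2.95) under it. Pericyte and smooth muscle markers had 5 of 11 above it, including Des, which muscle cells share, with Cnn1 and Pdgfrb (4.55) under it.

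Genes of the sex chromosomes gave 1 picture on all 3 arrays. The Y-linked Eif2s3y had 8.02, 7.95 and 7.51, Uty 7.15, 7.20 and 7.38, and Kdm5d 6.98, 7.10 and 7.11. Xist, the RNA of the inactive X, had 3.64, 3.60 and 3.64, under the line.

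The muscle microRNA genes were not uniform. Mir133b had 9.04, 8.97 and 8.36 and Mir206, its neighbour on chromosome 1, 6.69, 6.84 and 6.58. The host transcript of the miR-1 and miR-133a cluster, Mir1a-1hg, had 7.53, 7.29 and 6.43, and Mir133a-2 had 6.67, 5.66 and 4.88. Mir133a-1 ranged from 5.22 to 6.82. In these 3 genes replicate 1 was highest and replicate 3 lowest. Mir1a-1 (2.82) and Mir1a-2 (4.14) were under the line. The values are those of probe sets for the microRNA genes, and whether they read the precursor, the host transcript or the mature forms printed above cannot be told from them.

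Of 544 genes with a microRNA symbol (a count by name, not by the RefSeq type used above), 145 were above the line and 17 in the top 10%, led by Mir449b with 11.28, 11.56 and 11.47 and Mir3064 with 10.13, 10.50 and 10.58. What the microRNA probe sets read cannot be told from these values, as for the muscle microRNAs. Small nucleolar RNAs were led by Snora23 at 9.80 and Snora81 at 9.50. Hox genes, which record position along the body axis, had 12 of 38 above the line. The highest were Hoxc6 with 8.04, 8.17 and 7.72, Hoxc10 with 7.68, 7.34 and 7.28, Hoxa9 at 7.29 and Hoxc4 at 6.98. Histone genes had 22 of 46, led by H2bc13 with 10.41, 10.68 and 11.15 and the replication-independent variant H2az1 at 10.70. Among families outside muscle, 8 of 53 keratin-associated proteins and 3 of 42 beta-defensins passed the line, their highest members being Krtap4-13 (7.24) and Defb25 (6.95).

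Chromosomes and promoter classes differed in their share of genes above the line. On the X chromosome 390 of 963 genes (40.5%) were above the line, lower than on any autosome, and the highest share was 57.8% on chromosome 8. With the sensory receptor genes left out, chromosome 6 moved from 41.5% to 44.9% and X only from 40.5% to 40.8%, still the lowest beside the autosomes, and the highest shares were then 60.1% on chromosome 19, 59.6% on chromosome 10 and 58.1% on chromosome 8.

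Promoter windows were found for 18112 genes. Genes near background had a median GC content of 50.3% and a ratio of observed to expected CpG of 0.27. From the line to the 75th percentile these were 60.0% and 0.70, and between the 90th and 99th percentile 62.3% and 0.83. GC boxes occurred in 26.9% of windows near background and 69.3% between the 90th and 99th percentile, against 35.9% of all 27025 windows of this length.

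The TATA box did not follow the same course. It was in 18.3% of windows near background, in 8.08%, 6.45% and 6.71% of the next 3 classes and in 17.1% in the top 1%, against 14.2% of all windows. Sarcomere genes held it in 10 of 32 windows (31.2%), CAGCTG in 43.8% and the CArG box in 15.6%, where all windows had 16.1% and 1.57% for the last pair. Genes of calcium release and the synapse held CAGCTG in 8 of 14 windows (57.1%), and mitosis genes CCAAT in 22 of 30 (73.3%, all windows 37.9%). Genes of the top 1% spanned a median of 9574 bases, against 26226 between the 75th and 90th percentile.

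The control arrays resembled each other closely over all genes, and larger differences were limited to few genes. Pearson's r across genes above the line was 0.980 between replicates 1 and 2, 0.966 between 1 and 3 and 0.984 between 2 and 3, as a description in which genes are not independent. The median range of a gene over the 3 arrays was 0.27 and the 95th percentile was 0.80. Of 11969 genes above the line, 257 (2.15%) had a range of at least 1, that is 2-fold. Replicate 1 was the array farthest from the rest in 155 of them, replicate 3 in 89 and replicate 2 in 13. Without replicate 1 the count was 56 and without replicate 3 it was 80. A range over 2 arrays cannot exceed that over 3, so a fall was bound to follow. Between replicates 1 and 3 alone, with the line unchanged, 209 genes were at least 2-fold apart.

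The departures were mainly downward. Replicate 1 was lower in 121 and higher in 34 of its genes, and replicate 3 was lower in 74 and higher in 15. With the arrays centred on their medians the split was 162 lower and 21 higher for replicate 1 and 51 lower and 26 higher for replicate 3, with 272 genes in all. The genes low in replicate 1 had a median level at the 88.0th percentile, those high in it at the 66.2nd and those low in replicate 3 at the 79.0th. The median genomic span was below the 20318 bases of all genes above the line in every one of these sets, at 8497 bases for genes low in replicate 1, 8057 for those high in it, 16199 for those low in replicate 3 and 10933 for those high in it.

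The gene with the widest range, 3.12, was the non-coding RNA 2310043M15Rik, with 7.48, 6.47 and 4.36. Among the 20 named by range, Fgfbp1, a carrier that releases FGFs from the matrix, had 9.07, 8.72 and 6.85. Replicate 3 was the low array there. Hes6, a promoter of differentiation, had 6.04, 8.12 and 7.94, Gadd45g 6.13, 7.51 and 7.76, and the lysosomal protease Ctsl 9.06, 10.28 and 10.66. In these 3 genes replicate 1 was the low array and the others were close to each other.

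Replicate 1 was also the lowest for Prdx1, an antioxidant enzyme, with 7.87, 8.95 and 9.67, for H2ax, the histone variant of DNA damage, with 7.28, 8.59 and 9.22, for the histone H2bc15 with 7.27, 8.09 and 8.86, and for Tpm4, a cytoskeletal tropomyosin, with 8.21, 9.33 and 9.79. It was lowest too for Oaz1-ps, a pseudogene whose parent copy makes its value uncertain, with 8.26, 10.42 and 10.67. Eola1, Trmt112, Eif3m, Brk1, Rpl34, Timm17b, Gemin6, Snord19 and Id3 shared this pattern. Of the 20, only Fgfbp1, Mir133a-1 and Mir133a-2 were highest in replicate 1 and lowest in replicate 3 with a middle value in replicate 2.

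**Figure D3:**
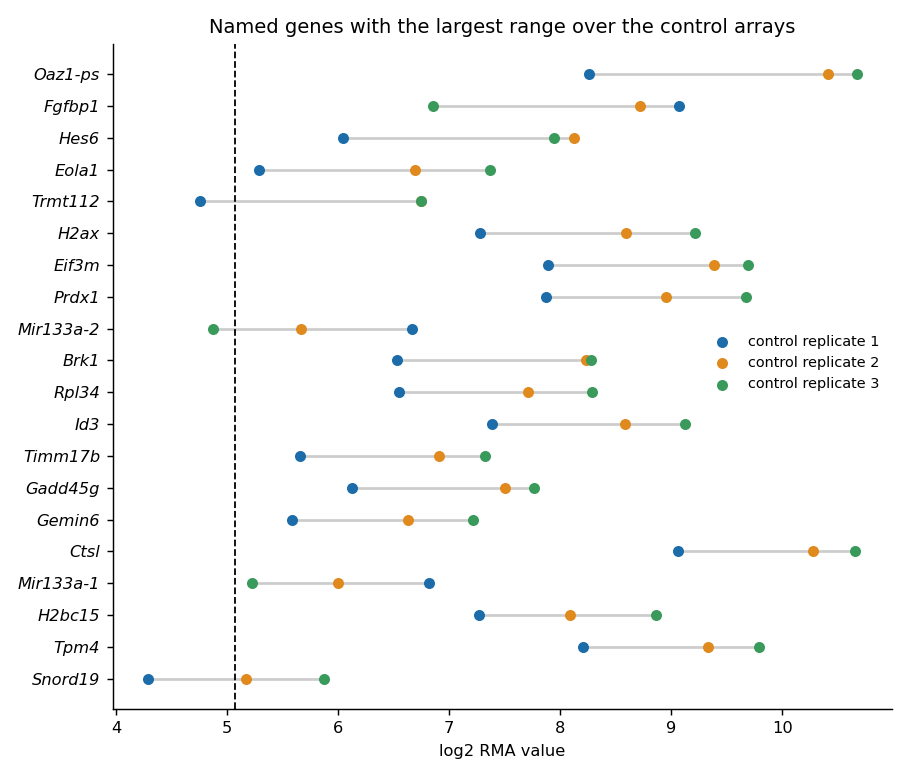
Log2 value in each control array for the 20 named genes with the largest range among genes above the line (x axis, log2 RMA value; colours are the 3 replicates; the dashed line is the background line at 5.07). Replicate 1 is the lowest array for 17 of the genes, and Fgfbp1, Mir133a-1 and Mir133a-2 are lowest in replicate 3.

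At the other extreme, 64 genes above the line (0.535%) had exactly the same value in all 3 arrays, and 764 had the same value in 2 of 3. The 10 named genes with the smallest range all had a range of 0, among them B4galt5 at 7.95, Txndc15 at 7.48, Snupn at 7.08, Ccnj at 6.53, Syne1 at 5.79, Celf5 at 5.68, Aph1b at 5.65, Ccdc28a at 5.54, Irx5 at 5.33 and Asphd1 at 5.21. They are 10 of 61 named genes with this property, so their order means nothing, and identical values to the last digit are not a measure of biological stability.

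Gene groups, too, differed between the control arrays. For each list the median over its members of an array minus the mean of the other control arrays was taken. In replicate 3 this was 0.48 for mitosis, 0.31 for DNA replication, 0.29 for cholesterol and fatty acid synthesis, -0.31 for calcium release and synapse, and -0.42 for sarcomere genes, against 0.03 for all genes above the line. All 36 mitosis genes were higher in replicate 3 than the mean of the others, 30 of 31 replication genes were, and 33 of 35 sarcomere genes were lower.

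Centring the arrays on their medians moved the value of all genes in replicate 3 to 0.10 and gave 0.55 for mitosis and -0.35 for sarcomere genes. A further quantile normalization gave 0.42 and -0.53, so neither direction turned under the scalings tried. Replicate 1 was low for actins and actin-binding genes (-0.41), cholesterol synthesis (-0.36) and the unfolded protein response (-0.34), and these directions also held under both scalings.

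**Figure D4:**
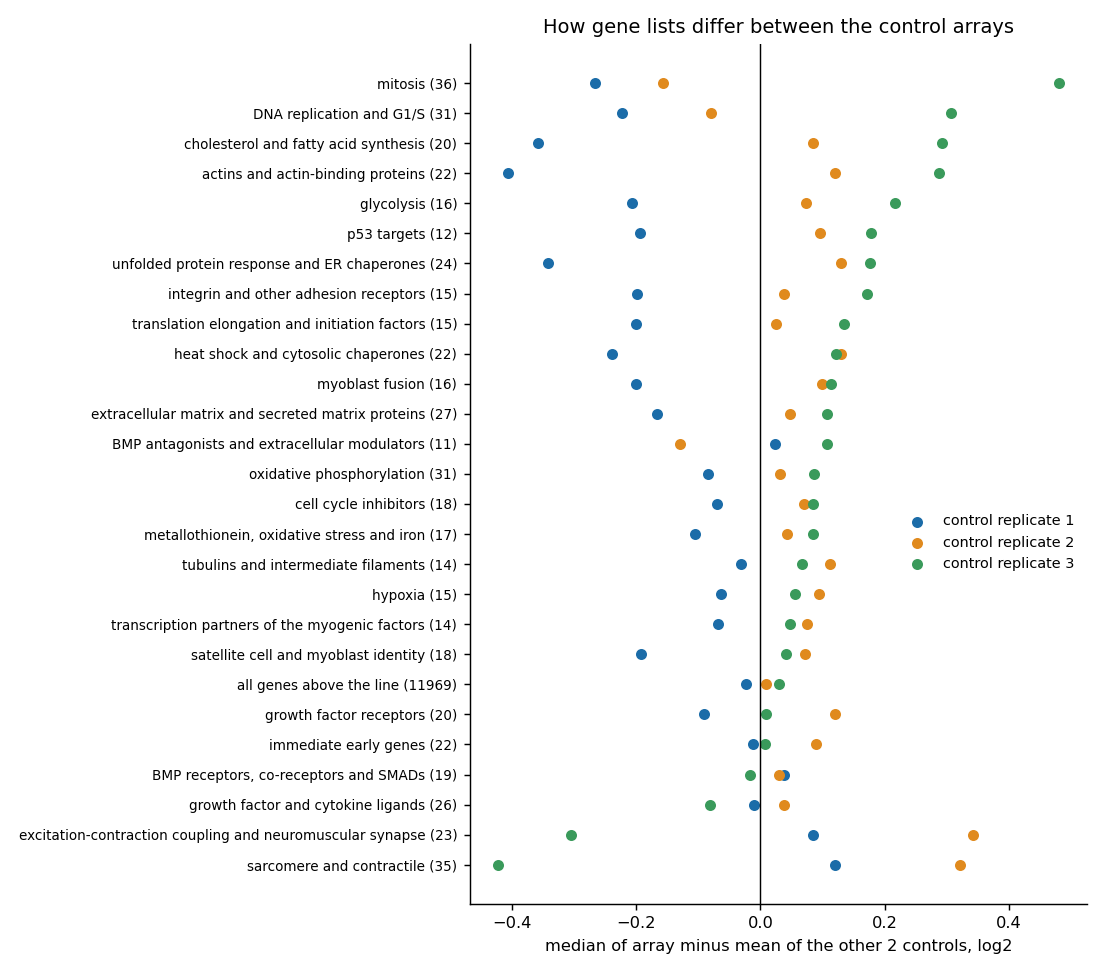
Median over the genes of each list of the control array minus the mean of the other 2 control arrays (x axis, log2 difference; rows are lists with the number of genes above the line; colours are the 3 replicates). Replicate 3 stands at 0.48 for mitosis and at -0.42 for sarcomere genes, and replicate 1 is the lowest array in most other lists.

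Since 3 arrays of one group allow no test among themselves, the same replicate numbers were examined in the 6 BMP4 and GREM1 arrays, which were not used to find the control differences. All 9 arrays were normalized together by the authors. Each replicate number was compared with the mean of the other 2 in limma, with group in the model, over the 11969 genes above the line in the controls. Replicate 3 differed in 145 genes (1.21% of those tested) at a Benjamini-Hochberg adjusted p under 0.05, 61 higher (0.51%) and 84 lower (0.702%). For replicates 1 and 2 limma called 0 genes, with 1560 and 884 at an unadjusted p under 0.05 (2581 for replicate 3).

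The number of calls was not stable. Leaving out any of the 6 arrays gave 0 calls, but it also lowered the 2 residual degrees of freedom of the fit. In these fits the replicate 3 differences of 3 called genes ran from 0.61 to 0.79 (Myf5), 0.63 to 0.74 (Id3) and 0.89 to 1.17 (H2bc15). With all 6 arrays they were 0.70, 0.69 and 1.03. Testing all 24011 genes without the background line also gave 0 calls. Centring on medians gave 525, with 351 higher and 174 lower, and a further quantile normalization gave 193, with 69 higher and 124 lower. The fit of all 9 arrays with the replicate number as a block, which includes the controls themselves, gave 1461.

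Of the 89 genes in which control replicate 3 was the far array by at least 2-fold, 87 (97.8%) had the same direction in the treated replicate 3, against 73.1% of all genes above the line. Of these 89 genes, 31 (34.8%) were called in that direction and 0 in the opposite one, against 1.21% called among all. For the 155 genes of replicate 1 the direction was the same in 143 (92.3%), against 63.5% of all genes, with a median ratio of the treated to the control difference of 0.244, against 0.682 for replicate 3. For the 13 genes of replicate 2 it was the same in 5 (38.5%), against 55.7% of all genes. Across all genes above the line, Pearson's r between the control and the treated difference was 0.713 for replicate 3, 0.435 for replicate 1 and 0.265 for replicate 2 (n = 11969 genes, a description).

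**Figure D5:**
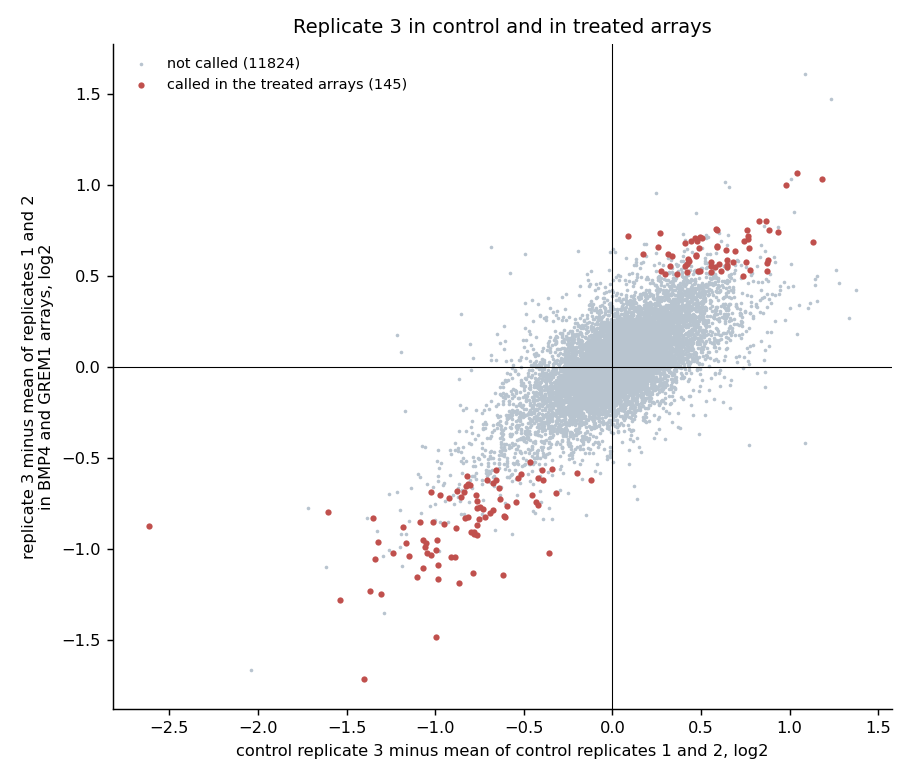
Replicate 3 minus the mean of replicates 1 and 2 in the control arrays (x axis, log2) against the same difference in the BMP4 and GREM1 arrays (y axis, log2), 1 point per gene above the line, with the 145 genes called in the treated arrays in red and the others in grey. The points follow a common direction (Pearson's r 0.713 over 11969 genes), and all 145 called genes have the same sign on both axes.

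The genes called lower in replicate 3 of the treated arrays included muscle genes from several compartments. Kcnn3, a calcium-activated potassium channel, was 8.10, 8.06 and 6.55 in the controls, and the treated means were 8.26, 8.31 and 7.01, a difference of -1.28 (SE 0.08, limma adjusted p = 0.0266). Sln differed by -1.48 (SE 0.19), Fgf21, a hormone that stressed muscle secretes, by -1.15, Fgf6, a muscle FGF, by -1.10, and Myot, a Z-disc protein, by -1.09. Of 35 sarcomere genes tested, 5 were called lower and 0 higher (Myh8 -0.95, Myh7 -0.91, Mybpc1 -0.88, Lmod2 -0.83 and Tpm3 -0.61). Of 23 calcium release and synapse genes it was 4 and 0 (Sln, Cacna1s -0.97, Casq1 -0.87 and Cacnb1 -0.68). Over all genes tested 0.702% were called lower, and most genes of both lists were not called. Fst (-1.02), Dmd, dystrophin (-0.97), and the muscle cytochrome oxidase subunit Cox6a2 (-0.85) were also called lower.

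Among those called higher were cell division and progenitor genes. Of 36 mitosis genes tested, 5 were called higher and 0 lower (Nuf2 0.72, Cdca8 0.71, Kif11 0.64, Cenpf 0.58 and Cenpa 0.57). Over all genes tested 0.51% were called higher. The replication list had 0 called, although all 31 of its genes were above 0. Myf5 was 7.40, 7.74 and 8.34 in the controls and 7.14, 7.38 and 7.96 in the treated means, a difference of 0.70 (SE 0.08, limma adjusted p = 0.0381). Id3 differed by 0.69 and H2bc15 by 1.03. The cholesterol list had 3 of 20 called higher (Scd1 0.72, Msmo1 0.69 and Elovl6 0.56). Cxcl12, a chemokine of stromal and muscle cells, differed by 0.64. Fgfbp1, the second of the 20 by range in the controls, differed by -1.66 but missed the threshold (limma adjusted p = 0.0508).

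Of 31 lists with at least 5 genes above the line, 23 had the same sign of the median difference in the treated replicate 3 as in the control replicate 3, and 8 had the opposite sign. The opposite ones included BMP antagonists, at -0.25 in the treated and 0.11 in the control arrays, and glycolysis, at -0.02 and 0.22. Of the lists described above for control replicate 3, the median difference in the treated arrays was 0.44 for mitosis, with 36 of 36 genes above 0, 0.29 for replication, with 31 of 31, 0.26 for cholesterol and fatty acid synthesis, with 19 of 20, -0.35 for sarcomere genes, with 34 of 35 below 0, and -0.26 for calcium release and synapse, with 19 of 23. What replicate number 3 stands for is not given in the labels. Fibroblast markers above the line were also higher in control replicate 3 (median difference 0.31 over 4 genes) and differed by 0.07 in the treated replicate 3, and their part in the result was not tested.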

How the data were processed

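Affymetrix arrays of mouse primary myoblasts were used, 1 per sample. The deposited table holds log2 values. Per the submitters' processing notes, the authors used RMA (robust multi-array average) as run by Affymetrix Expression Console. Array model, chip definition and genome build: not given in the sources used here. RMA corrects background, normalizes all 9 arrays together and summarises probes, which narrows differences of low genes. Of 24973 probe sets, 24015 had 1 gene symbol and 958 none, and 23922 of the named ones were found in RefSeq (GRCm38.p6). For 4 genes with several probe sets the one with the highest control mean was taken. Control values were averaged and ranked without a test. The replicate test used limma 3.58.1 in R 4.3.3 (lmFit and eBayes, 2 residual degrees of freedom, a prior of 3.92, two-sided, Benjamini-Hochberg over 11969 genes). Its code was also run on simulated data with noise drawn independently for each gene. That run does not give the error rate on real arrays, whose genes are not independent. Figures and summaries were made in Python 3.11.15 with pandas 2.3.3.

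Replicate numbers come from the sample titles. Deviations of same-numbered arrays from their group means correlated at 0.164 to 0.672 across genes, every pair above 0.1. The numbers were therefore taken to pair the arrays. Number 3 with itself had 0.504 to 0.672, and against the other numbers -0.562 to -0.191. Deviations cancel within a group, so the negative values are not separate from the positive ones. The pairing and the agreement of control and treated replicate 3 given above rest on the same deviations. Number 1 with itself had 0.313 to 0.378. Between numbers 1 and 2 the values were 0.073 to 0.278, which overlap the 0.164 to 0.225 of number 2 with itself. The pairing is thus clear for number 3 and not settled for number 2. Precision is limited by having 3 arrays in a group.

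Genes were named by rule: the 25 highest, the 20 widest and 10 narrowest ranges, up to 6 highest and 3 lowest of each list, up to 4 highest of each family, and Pax7, the 4 myogenic factors, Bmp4, Grem1, Id1, Id3, Smad6 and Smad7, skipping predicted genes and clones. Lists held 40 sets and 13 families of genes. The members and lists were chosen with earlier results of these data known. Other genes named, such as those of the myosin, BMP receptor, marker and microRNA paragraphs and those called in replicate 3, were chosen after their values were seen.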

Additional observations from a re-analysis of the deposited data

Results flagged for a closer look

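Of the 958 probe sets with no gene symbol here, which entered no ranking or list, 471 (49.2%) had a control mean above the background line of 5.07, with a median of 5.04 over all 958. They were singled out because they hold signal outside the genes described. The share above the line among named genes was 49.8%. What these probe sets measure was not analysed here.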

How the results depend on the processing

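The count of 12042 genes near background fell to 7204 with the line at the 30th percentile of all genes (3.96). The 99th percentile of the receptor genes (6.41) gave 16549, within 1.5 times of the main count. The count of 257 varying genes ran from 56 to 208 when a control array was left out (56 without replicate 1, 80 without replicate 3). With the replicate number as a block over all 9 arrays, limma called 114 genes for replicate 1, 4 for replicate 2 and 1461 for replicate 3, against 0, 0 and 145 in the treated arrays alone. For replicate 3 the count was also 512 with the line at the 99th percentile of the receptor genes, 539 with an intensity trend, 525 with median centring and 0 with no background filter, and it was 0 for each treated array left out (lowest 0, highest 0). The cause was not tested. By design, fewer or more genes were tested when the line changed, and each array left out lowered the 2 residual degrees of freedom. All 145 genes were among those called with the block, the trend and median centring, 140 with quantile normalization and 112 with the stricter line. In all, 43 counts stayed within 1.5 times of the main count, 6 were larger and 10 smaller. The 43 include counts for replicates 1 and 2 that were 0 and stayed at 0, which say little about stability. Of the values for single genes or lists, 563 kept their call or moved by no more than 1 SD, 28 moved by more and 21 lost their call. Many of the 563 were bound to pass and say little about stability. Leaving out 1 control array cannot move the mean of a gene over 3 arrays by more than 1 SD. Averaging probe sets could change only the 4 genes with several of them. The replicate 3 differences of the 3 named genes called in the treated arrays (Id3, Myf5 and H2bc15) kept their sign under every alternative. The 21 lost calls were all of these 3 genes, which were not called without the background filter or with any treated array left out. Of the other 25 genes followed, which were not called, 4 changed sign under some alternative. Hes6 moved from -0.03 to 0.27 with the block, 0.02 with centring, 0.01 without BMP4 replicate 2 and 0.03 without BMP4 replicate 3. Without BMP4 replicate 3 Myog moved from -0.45 to 0.04. Smad6 moved from -0.14 to 0.02 without GREM1 replicate 2 and to 0.32 without GREM1 replicate 3, where Smad7 moved from -0.15 to 0.14.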
